A study of Arabidopsis thaliana with 128 samples.

Results

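Class A heat shock transcription factors of *Arabidopsis thaliana* were followed through heat stress and recovery in seedlings, shoot stem cell nuclei and inflorescences. The 10 genes were taken by their AGI identifiers from a fixed list, a rule that uses no measured value, although the list was drawn up with earlier results of these data known: *HSFA1A* (AT4G17750), *HSFA1B* (AT5G16820), *HSFA1D* (AT1G32330), *HSFA1E* (AT3G02990), *HSFA2* (AT2G26150), *HSFA3* (AT5G03720), *HSFA4A* (AT4G18880), *HSFA6B* (AT3G22830), *HSFA7A* (AT3G51910) and *HSFA7B* (AT3G63350). They are 10 of 29417 nuclear genes, in a table of 60886 features and 128 RNA-seq libraries. The other class A genes in the same table, *HSFA4C*, *HSFA5*, *HSFA6A*, *HSFA8* and *HSFA9*, serve as comparison.

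Heat shock factors are DNA-binding proteins that join into trimers and bind heat shock elements, repeats of the bases GAA in alternating orientation, in the promoters of heat shock protein genes. Class A members carry activator motifs and switch such genes on, while most class B members lack these motifs. In Arabidopsis the *HSFA1* genes are expressed without stress, their proteins are held inactive by HSP70 and HSP90 chaperones, and once released they start the response. *HSFA2*, *HSFA7A* and *HSFA7B* are known as heat-induced genes. *HSFA3* is transcribed under DREB2 factors, and HSFA2 and HSFA3 proteins are known for keeping heat-inducible genes active after the stress has ended.

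Heat-treated plants (H) had spent 24 h at 37 °C when 6 days old, and control plants (C) had stayed at 21 °C. Samples were taken at day 7, directly after the heat, or at day 28, which is 21 days later. At day 7 they were seedling tissue without roots (T7, 10 plants per extract), sorted stem cell nuclei (S7, 100 nuclei per library) and, in wt alone, nonstem nuclei from the same kind of sort (N7). At day 28 they were inflorescence apices (I28) and sorted stem cell nuclei (S28). Groups were of the genotypes *poliv* (the T-DNA line *nrpda-3*, in the largest subunit of RNA polymerase IV), *ddm1* (the T-DNA line *ddm1-10*, in a chromatin remodeler) and wt. All of them, wt and controls included, carried the reporter *pCLV3::H2BmCherry* in the Col-0 background, so stem cell nuclei are those in which the *CLV3* promoter drives the tagged histone. Each group is written as heat or control, sample type and day, for example HT7 and CT7. T7 groups had 4 libraries (*poliv* CT7 had 3), S7 groups 8, N7 groups 6, I28 groups 4 (*ddm1* HI28 and wt CI28 had 3) and S28 groups 4 (*ddm1* HS28 had 3).

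Levels are the authors' normalized counts (reads scaled for library depth, not for gene length). Libraries held 8614232 to 17611137 reads in T7, 1853992 to 5813317 in S7, 3401349 to 5253212 in N7, 7456669 to 15016702 in I28 and 2615204 to 6999950 in S28. T7 and I28 hold total RNA and the sorted samples nuclear RNA. By the methods of the study, S7 libraries came from Smart-seq v3, those of T7, I28 and S28 from v2 and no version is named for N7, while the labels give v2 for every library. The summed level of the stem cell markers *CLV3*, *AGO5*, *AGO9* and the reporter was 656 to 1032 in wt HS7 and 175 to 455 in wt CS7, against 2.82 to 53.5 in HN7 and 2.04 to 14.1 in CN7. In *ddm1* it was 145 to 479 in HS7 and 12.7 to 96.6 in CS7, below every wt library of the same treatment. The summed mesophyll markers were lower after heat: 4219.7 to 5729 in wt HS7 against 40982 to 59410.2 in wt CS7. Summed epidermis markers overlapped in wt S7, at 878 to 2080 in HS7 and 920 to 1645 in CS7. They overlapped in *poliv* S7 too, but in *ddm1* were 90.1 to 844 in HS7 against 921 to 1607 in CS7. In *ddm1*, the *DDM1* transcript had a median of 2.82 in T7 against 20.9 in wt, but 128 in S7 against 78.1 in wt. *NRPD1* had a median of 90.5 in *poliv* S7 and 97.2 in wt S7. Both alleles are insertions, for which a gene count does not check the label.

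All 10 are protein-coding genes with 2 or 3 exons in RefSeq's TAIR10.1 annotation. *HSFA1A* lies at chr4:9869818-9871646 (minus strand), *HSFA1B* at chr5:5530195-5532889 (plus), *HSFA1D* at chr1:11656964-11660471 (minus) and *HSFA1E* at chr3:673428-676428 (plus). *HSFA2* lies at chr2:11135624-11137792 (plus), *HSFA3* at chr5:971142-974326 (minus) and *HSFA4A* at chr4:10347479-10349902 (minus). *HSFA6B* lies at chr3:8078789-8081059, *HSFA7A* at chr3:19265141-19266806 and *HSFA7B* at chr3:23399236-23400812, all on the plus strand. *HSFA1B* shares 44 exon bases with the antisense gene *SYP21* and *HSFA3* 11 with antisense AT5G03710, and with no strand setting given, reads there could belong to either. No exon stretch of 50 bases recurs elsewhere in the genome except 5 of 1575 in *HSFA1A*, so reads of the 10 genes can be told from each other.

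The 250 bases before each annotated gene start were searched for heat shock elements and for the DREB2 binding core, on both strands. A 2-unit element was GAANNTTC or TTCNNGAA, a 3-unit element was GAANNTTCNNGAA or TTCNNGAANNTTC (each of which holds overlapping 2-unit elements), and the DRE core was ACCGAC or GCCGAC. A 3-unit element was found in 3 of the 10 members, *HSFA2*, *HSFA7A* and *HSFA7B*, and in 106 of 27443 protein-coding genes (0.386%). Any 2-unit element was found in 5 of the 10 members and in 4432 of all (16.1%), the additional members being *HSFA1E* and *HSFA4A*. The DRE core was found in *HSFA1A* and in 7.09% of all genes. None of these letters were in the windows of *HSFA1B*, *HSFA1D*, *HSFA3* and *HSFA6B*. Of the 16 listed targets of class A factors, 9 held a 2-unit and 3 a 3-unit element. The windows of the members with 3-unit elements, and that of *HSFA3*, the member with the highest level in heated seedlings, are printed 5′ to 3′ in the gene's direction, ending at the base before the gene start, with the elements in capitals.
HSFA2 (chr2:11135374-11135623, plus strand): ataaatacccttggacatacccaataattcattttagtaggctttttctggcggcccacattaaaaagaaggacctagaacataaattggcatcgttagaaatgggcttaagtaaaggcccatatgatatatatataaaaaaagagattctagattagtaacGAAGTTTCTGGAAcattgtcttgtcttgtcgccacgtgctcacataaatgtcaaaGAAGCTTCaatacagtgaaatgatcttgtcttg
HSFA7A (chr3:19264891-19265140, plus strand): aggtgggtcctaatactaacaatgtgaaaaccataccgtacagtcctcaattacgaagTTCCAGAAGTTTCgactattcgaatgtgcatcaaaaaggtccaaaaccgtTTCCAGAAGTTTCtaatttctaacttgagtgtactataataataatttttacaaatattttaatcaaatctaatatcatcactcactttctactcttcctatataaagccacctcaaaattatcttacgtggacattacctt
HSFA7B (chr3:23398986-23399235, plus strand): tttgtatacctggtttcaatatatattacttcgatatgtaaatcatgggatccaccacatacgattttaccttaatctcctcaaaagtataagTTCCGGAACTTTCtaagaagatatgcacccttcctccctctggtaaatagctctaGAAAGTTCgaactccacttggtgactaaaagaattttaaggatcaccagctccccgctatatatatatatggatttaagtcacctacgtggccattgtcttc
HSFA3 (chr5:974327-974576, minus strand): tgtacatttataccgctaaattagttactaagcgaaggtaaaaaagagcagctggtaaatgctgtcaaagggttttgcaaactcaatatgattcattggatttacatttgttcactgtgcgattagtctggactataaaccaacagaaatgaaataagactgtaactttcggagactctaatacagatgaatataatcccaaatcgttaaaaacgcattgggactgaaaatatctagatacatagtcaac
In *HSFA2* the 3-unit element lay 88 to 76 bases before the start and a 2-unit element 33 to 26 bases before it. *HSFA7A* held the same 3-unit letters in each of 2 places, 192 to 180 and 142 to 130 bases before the start. *HSFA7B* held a 3-unit element 157 to 145 and a 2-unit element 102 to 95 bases before the start. A match of letters is a description of the sequence, not evidence of binding.

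**Figure D1:**
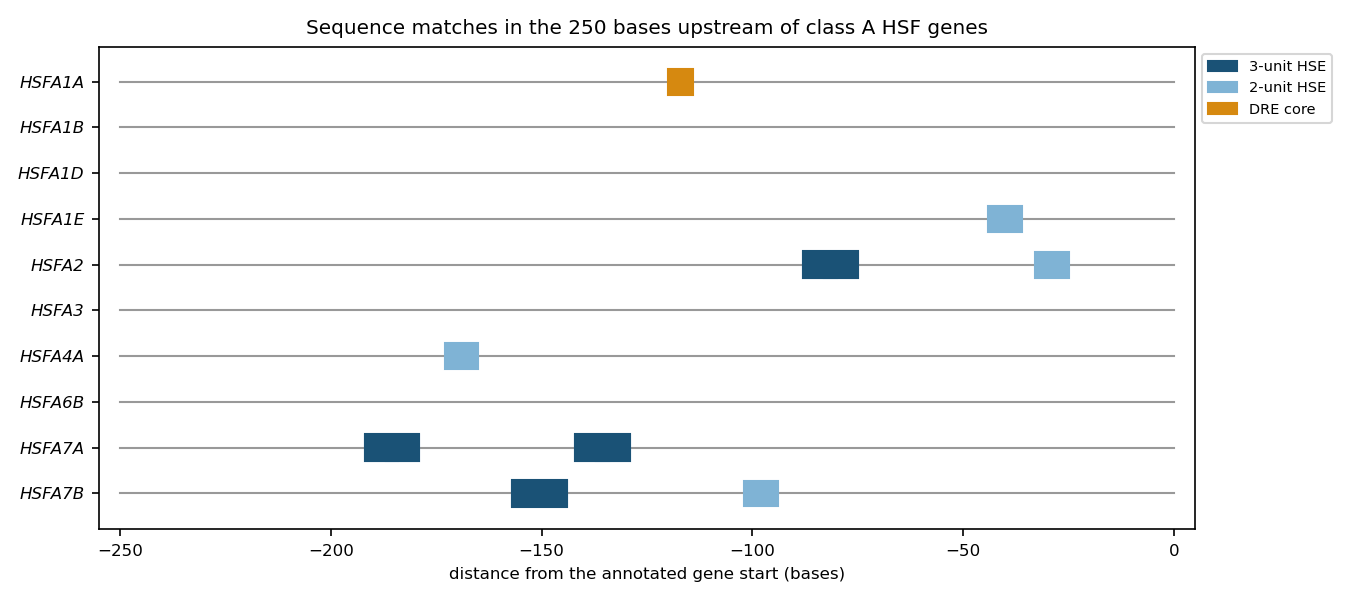
Positions of matches to heat shock elements (2-unit and 3-unit) and to the DRE core in the 250 bases before the annotated start of each class A gene. The horizontal axis is the distance from the gene start in bases, and *HSFA2*, *HSFA7A* and *HSFA7B* are the rows with 3-unit elements.

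In wt seedlings, 5 of the 9 members tested rose during heat and none fell: *HSFA3*, *HSFA2*, *HSFA7B*, *HSFA1D* and *HSFA1E*. Of all 17409 features tested, 47.7% were called in this comparison, 20.3% upward and 27.4% downward. Calls needed an adjusted p under 0.05 (limma, Benjamini-Hochberg over all features tested) and a log2 fold change over 1 in size on the scale of log2(normalized count + 1), and features were tested where their mean was at least 5. The median log2 fold change of the 9 members was 1.86, against -0.17 over all nuclear genes. Scaling the reads by TMM moved the median of all genes to 0.10 and the share of higher among called genes to 51.4%, against 41.2% as deposited, and left these 5 calls in place. The summed mesophyll markers were 274853 to 528435 in HT7, against 1752390.0 to 3109010.0 in CT7. Summed epidermis markers were 534 to 2473 in HT7, against 16420 to 27026 in CT7. In such bulk samples fewer cells of a type and less RNA per cell cannot be told apart, and their part in the changes was not tested.

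*HSFA3* had 634, 664, 715 and 582 in the 4 wt HT7 libraries, against 9.01, 4.14, 10.9 and 0 in CT7. The heated libraries lay close together and far above every control, with a log2 fold change of 7.03 (SE 0.69, adjusted p = 2.89e-05), which was 6.25 without CT7 replicate 4, the library at 0. *HSFA2* had 79.2, 48.4, 65.4 and 344 in HT7, against 0, 1.38, 1.82 and 3.52 in CT7. All heated libraries were higher, but replicate 4 held several times the level of the others (log2 fold change 5.38, SE 0.63, adjusted p = 1.78e-05, and 4.77 without it). *HSFA2* rested on 766 reads over the 4 HT7 libraries and on 4 reads over CT7. Replicate 4 was also the highest library for 13 of 16 targets of class A factors, but for 1 of the 9 other members.

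*HSFA7B* had 13.8, 13.4, 6.13 and 8.12 in wt HT7, against 0 in every library of CT7. Against the level of 3 reads over the control group it was at least 8.17-fold higher (adjusted p = 0.000442). *HSFA7A*, which also has 3-unit elements upstream, had 17.9, 16.5, 15.7 and 19.6 in HT7 and 37.8, 30.3, 5.46 and 12.3 in CT7. These groups overlapped, and the log2 fold change was 0.03 with a 95% interval of -1.09 to 1.15.

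Among the *HSFA1* genes, which encode the factors present before stress, *HSFA1D* had 49.6, 60.7, 59.9 and 50.1 in wt HT7, against 7.21, 9.65, 30.9 and 10.6 in CT7 (log2 fold change 2.06, SE 0.40, adjusted p = 0.000781). *HSFA1E* had 25.5, 27.8, 40.2 and 25.7 in HT7, against 5.41, 6.89, 10.9 and 7.04 in CT7 (log2 fold change 1.86, SE 0.36, adjusted p = 0.000749). Groups did not overlap in either gene, in a comparison with 47.7% of all features called. How many of all features had such groups was not counted at day 7. *HSFA1B* averaged 30.3 ± 4.36 in HT7 and 20.1 ± 11.3 in CT7 (SD, n = 4 each, log2 fold change 0.70, interval -0.11 to 1.52). *HSFA1A* averaged 12.9 ± 2.85 in HT7 and 9.70 ± 6.69 in CT7 (SD, n = 4 each, log2 fold change 0.62, interval -0.54 to 1.77). Without replicate 1 of CT7, *HSFA1B* was called too, at 1.02. *HSFA4A*, linked to responses to reactive oxygen, had a log2 fold change of 0.03 (interval -0.87 to 0.93). *HSFA6B*, a factor of abscisic acid responses, was below the filter with 7.58, 7.20, 4.08 and 4.74 in HT7, against 1.80, 0, 0 and 0 in CT7. Its groups did not overlap, and with no filter it was called at 2.38 (adjusted p = 0.00362).

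Seedlings of the mutants gave 7 calls of 9 members tested each, all upward, against backgrounds of 49.1% in *poliv* (22% upward and 27.1% downward) and 50.6% in *ddm1* (22.7% upward and 27.9% downward). In both mutants *HSFA1B* and *HSFA4A* joined the 5 genes called in wt. Member medians were 2.11 in *poliv* and 2.43 in *ddm1*, against -0.15 and -0.18 over all genes. *HSFA2* had 270.1, 309, 714 and 387 in *poliv* HT7, against 9.34, 3.11 and 2.84 in CT7. It had 67.4, 63.4, 308 and 307 in *ddm1* HT7, against 1.38, 0, 2.43 and 12.1 in CT7. The log2 fold changes were 6.16 (SE 0.42, adjusted p = 5.55e-07) in *poliv* and 5.48 (SE 0.82, adjusted p = 0.000279) in *ddm1*, where it was 6.15 without CT7 replicate 4.

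*HSFA3* had 559, 374, 581 and 968 in *poliv* HT7, against 17.1, 7.25 and 12.8 in CT7 (log2 fold change 5.53). It had 526, 519, 1313 and 1084 in *ddm1* HT7, against 9.66, 12.9, 7.28 and 4.04 in CT7 (log2 fold change 6.48). No library of the heated groups came near a control. *HSFA1E* averaged 72.0 ± 53.3 in *poliv* HT7 (n = 4) against 3.71 ± 1.28 in CT7 (SD, n = 3), and *HSFA1D* 67.0 ± 3.11 in *ddm1* HT7 against 12.2 ± 4.75 in CT7 (SD, n = 4 each). *HSFA7B*, at 0 in every mutant control seedling library, was at least 7.47-fold higher in *poliv* HT7 and at least 23.5-fold higher in *ddm1* HT7. *HSFA6B* was below the filter in both mutants and, with no filter, was called at 2.998 in *poliv* and 2.16 in *ddm1*. In *poliv* it had 2.06, 5.94, 15.9 and 10.3 in HT7 and 0 in every CT7 library, at least 6.41-fold higher.

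*HSFA4A* was called in *poliv* (log2 fold change 1.68, SE 0.49, adjusted p = 0.0124) and in *ddm1* (1.66, SE 0.40, adjusted p = 0.00293) but not in wt. *HSFA1B* was called at 1.24 (SE 0.39, adjusted p = 0.0183) in *poliv* and at 1.81 (SE 0.41, adjusted p = 0.00176) in *ddm1*. The *HSFA1B* call in *poliv* was lost without CT7 replicate 3, HT7 replicate 3 or HT7 replicate 4 (adjusted p = 0.0519 to 0.0703), and that of *HSFA4A* without CT7 replicate 3 (0.0537). The tests of the difference between mutant and wt heat effects called none of the 9 members in either mutant, by limma, edgeR or DESeq2, against backgrounds of 0.0515% (*poliv*) and 2.65% (*ddm1*). At an unadjusted p under 0.05, limma gave 2 members for *poliv* and 1 for *ddm1*, counts to which these backgrounds do not apply. For *HSFA4A* the difference was 1.65 (SE 0.66, adjusted p = 0.428) for *poliv* and 1.63 (SE 0.57, adjusted p = 0.208) for *ddm1*.

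**Figure D2:**
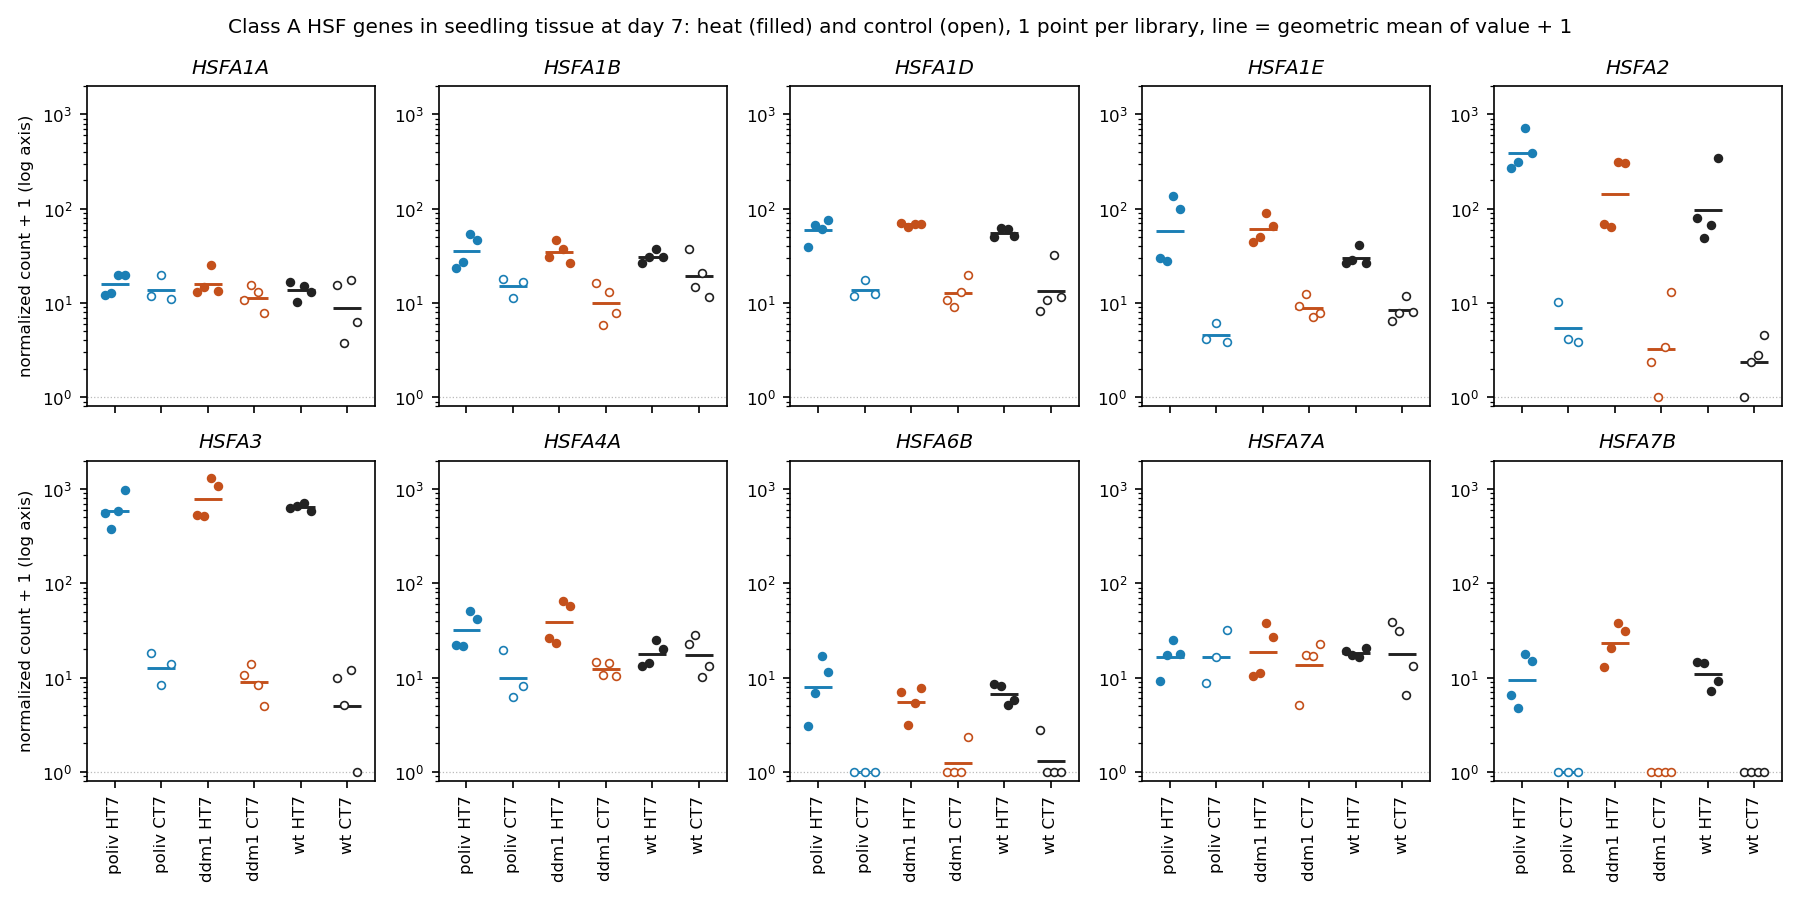
Normalized counts of the 10 class A genes in day 7 seedlings (T7) per library, on a log axis of count + 1, with heat (H) left of control (C) in each genotype and a line at the geometric mean of count + 1. *HSFA1D*, *HSFA1E*, *HSFA2*, *HSFA3*, *HSFA6B* and *HSFA7B* show separate heat and control groups in all 3 genotypes, and *HSFA7A* and *HSFA1A* overlapping ones.

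The order of the members changed with heat when levels were divided by exon length. In wt CT7, *HSFA7A* stood first with 18.5 ± 13.1 normalized counts per kb, and its range overlapped that of the next gene in the order. In wt HT7, *HSFA3* stood first with 294 ± 25.1 per kb, *HSFA2* came next with 71.5 ± 74.8 followed by *HSFA1D* with 26.4 ± 2.90 (SD, n = 4 each). The ranges of *HSFA3* and *HSFA2* did not overlap in wt HT7 or *ddm1* HT7. In *poliv* HT7 they did, at 281 ± 113 and 224 ± 108 per kb.

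The rest of the pathway, by lists taken from textbook roles, moved as follows in wt seedlings. All 16 targets of class A factors rose (median log2 fold change 11.16), led by the small heat shock proteins *HSP21* (14.95), *HSP22.0* (14.86) and *HSP17.4* (14.29), and so did all 16 in either mutant. All 8 listed copies of *ONSEN*, a retrotransposon with heat shock elements in its ends, rose in each genotype. Of 7 regulators, 5 rose in each genotype, among them *DREB2C* (7.77 in wt, 0 in every wt CT7 library) and *DREB2B* (6.20), the family that acts on *HSFA3*, and the HSP90-binding immunophilin *ROF1* (5.63). Fold changes against libraries at 0 depend on the pseudocount of 1. Of the 5 other class A genes 3 were tested and *HSFA8* rose, with 41.8 ± 17.59 in HT7 against 1.48 ± 1.96 in CT7. Of 5 class B and C factors tested in wt, *HSFB1* rose (log2 fold change 5.57, adjusted p = 0.00394).

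In wt stem cell nuclei, the members split in direction. *HSFA3*, *HSFA6B* and *HSFA1E* rose, *HSFA7A* and *HSFA4A* fell, and *HSFA2* was not called. These are 5 of 9 tested, with 36.3% of all features called (12.5% upward and 23.7% downward). The median of the members was 0.72, against -0.34 over all genes. The summed stem cell markers were higher and the mesophyll markers lower in HS7 than in CS7, as given above, and their part in these changes was not tested.

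*HSFA3* had a lowest value of 158, a median of 272 and a highest of 382 in the 8 wt HS7 libraries, against a lowest value of 4.54, a median of 26.05 and a highest of 47.3 in CS7. The groups did not overlap (log2 fold change 3.52, SE 0.37, adjusted p = 5.91e-09). *HSFA6B* had a lowest value of 6.55, a median of 36.3 and a highest of 72.6 in HS7, against a lowest value of 0, a median of 0 and a highest of 2.93 in CS7. Again no HS7 library was as low as a CS7 library (log2 fold change 4.44, SE 0.67, adjusted p = 3.22e-06). *HSFA7A* went the other way, with a lowest value of 0, a median of 0 and a highest of 10.4 in HS7, against a lowest value of 26.7, a median of 46.0 and a highest of 80.7 in CS7. Every heated library was below every control (log2 fold change -4.59, SE 0.69, adjusted p = 3.32e-06).

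*HSFA2* had a lowest value of 3.51, a median of 23.5 and a highest of 51.2 in wt HS7, against a lowest value of 0, a median of 17.41 and a highest of 56.3 in CS7. The ranges overlapped almost whole, and the log2 fold change was 0.72 with an interval of -0.76 to 2.20. *HSFA1E* averaged 62.8 ± 48.4 in HS7 and 17.3 ± 14.4 in CS7 (SD, n = 8 each, log2 fold change 1.87, SE 0.69, adjusted p = 0.0282). *HSFA4A* averaged 10.1 ± 11.9 in HS7, with 4 libraries at 0, and 24.9 ± 15.0 in CS7 (log2 fold change -2.18, SE 0.86, adjusted p = 0.0404). Both calls were near the threshold. That of *HSFA1E* was lost in 6 of 16 refits without 1 library (CS7 replicates 2, 4 and 6, HS7 replicates 4, 6 and 7, with adjusted p = 0.053 to 0.0656). That of *HSFA4A* was lost in 9 of 16 (CS7 replicates 1, 2, 3, 6 and 7, HS7 replicates 2, 3, 5 and 8, with adjusted p = 0.0628 to 0.084) and under each other alternative but the replicate block: pseudocount 5 (adjusted p = 0.0543), no filter (0.0697), TMM scaling (0.053), edgeR (0.424) and DESeq2 (0.35).

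*HSFA1D* averaged 31.3 ± 22.9 in wt HS7 and 7.60 ± 4.05 in CS7 (SD, n = 8 each) and missed the threshold at 1.55 (SE 0.76, adjusted p = 0.101). The read-based tests called it, at 2.21 by edgeR (adjusted p = 0.0346) and 2.15 by DESeq2 (0.0109), as did limma with a pseudocount of 5 (1.22, adjusted p = 0.0459) and without HS7 replicate 3 or 6. *HSFA1A* and *HSFA1B* had log2 fold changes of -0.99 (interval -2.45 to 0.46) and -0.15 (-0.88 to 0.57). *HSFA7B* was below the filter in day 7 nuclei of every genotype, from 0 to 2.57 in wt HS7 and from 0 to 9.01 in CS7. Single libraries were higher, with 31.9 in replicate 6 and 17.8 in replicate 3 of *ddm1* HS7. In wt HN7, replicate 4 had 16.6 and replicate 3 had 7.89. The remaining libraries held at most 0.915 in *ddm1* HS7 and 0 in wt HN7.

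In *poliv* stem cell nuclei 5 of 9 members were called with a background of 35.2% (12.5% upward and 22.7% downward), and in *ddm1* 3 of 9, also with 35.2% (12.1% upward and 23% downward). The summed stem cell markers were 1027 to 1519 in *poliv* HS7 against 193 to 519 in CS7, and the mesophyll markers 3183 to 4539 in *poliv* HS7 against 53118 to 69971 in CS7. In *ddm1* the stem cell markers had the ranges given above, and the mesophyll markers were 3578 to 6571 in HS7 against 99837 to 143504 in CS7. Their part in the changes of both mutants was not tested. *HSFA3* rose in both, to 211 ± 69.2 in *poliv* HS7 against 17.7 ± 11.0 in CS7 and to 189 ± 40.0 in *ddm1* HS7 against 40.5 ± 18.3 in CS7 (SD, n = 8 each). *HSFA1E* rose in both as well, with log2 fold changes of 2.77 (SE 0.78, adjusted p = 0.0055) in *poliv* and 1.63 (SE 0.47, adjusted p = 0.00611) in *ddm1*. *HSFA7A* fell in both, to 11.6 ± 19.6 in *poliv* HS7 against 39.9 ± 18.9 in CS7 and to 14.7 ± 15.6 in *ddm1* HS7 against 52.6 ± 22.9 in CS7. Its log2 fold change was -3.23 (SE 0.84, adjusted p = 0.00274) in *poliv*, not called by edgeR (adjusted p = 0.195) or DESeq2 (0.128), and -2.50 (SE 0.72, adjusted p = 0.00612) in *ddm1*, not called by edgeR (0.0756). *HSFA7A* was highest in replicate 1 of *poliv* HS7 (55.5) and in replicate 8 of *ddm1* HS7 (48.9).

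*HSFA2* rose in *poliv* stem cell nuclei, with a lowest value of 14.2, a median of 44.4 and a highest of 137 in HS7 against a lowest value of 0, a median of 18.5 and a highest of 33.7 in CS7 (log2 fold change 2.34, SE 0.79, adjusted p = 0.0192). In *ddm1* it averaged 32.3 ± 31.7 in HS7 and 11.7 ± 17.8 in CS7, with a log2 fold change of 1.41 and an interval of -0.39 to 3.21. *HSFA6B* rose in *poliv* (2.73, SE 0.86, adjusted p = 0.012). In *ddm1* it had a lowest value of 0, a median of 0.799 and a highest of 68.2 in HS7, against a lowest value of 0, a median of 1.81 and a highest of 12.1 in CS7, a log2 fold change of 0.15 (interval -1.67 to 1.96). *HSFA1A*, *HSFA1B*, *HSFA1D* and *HSFA4A* were called in neither mutant. *HSFA1D* was called in *poliv* without HS7 replicate 5 (1.59, adjusted p = 0.0368), and *HSFA4A* fell in *ddm1* without HS7 replicate 2, 4, 6 or 7 (-1.76 to -1.93, adjusted p = 0.0223 to 0.0495).

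By limma, but not by edgeR or DESeq2, the heat effect on *HSFA6B* was called as smaller in *ddm1* than in wt stem cell nuclei. The difference, *ddm1* minus wt, was -4.29 (SE 1.02, adjusted p = 0.00493) on the log2 scale, the 1 member of 9 called in that comparison (background 7.09%). The read-based tests gave differences of -3.42 (edgeR, adjusted p = 0.209) and -3.60 (DESeq2, 0.161). With the stem cell markers below wt in *ddm1* HS7 and CS7 alike, the share of stem cell nuclei and the genotype cannot be told apart. For *poliv* against wt, no member was called by limma, edgeR or DESeq2 (background 0.233%) and none had an unadjusted p under 0.05 by limma.

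**Figure D3:**
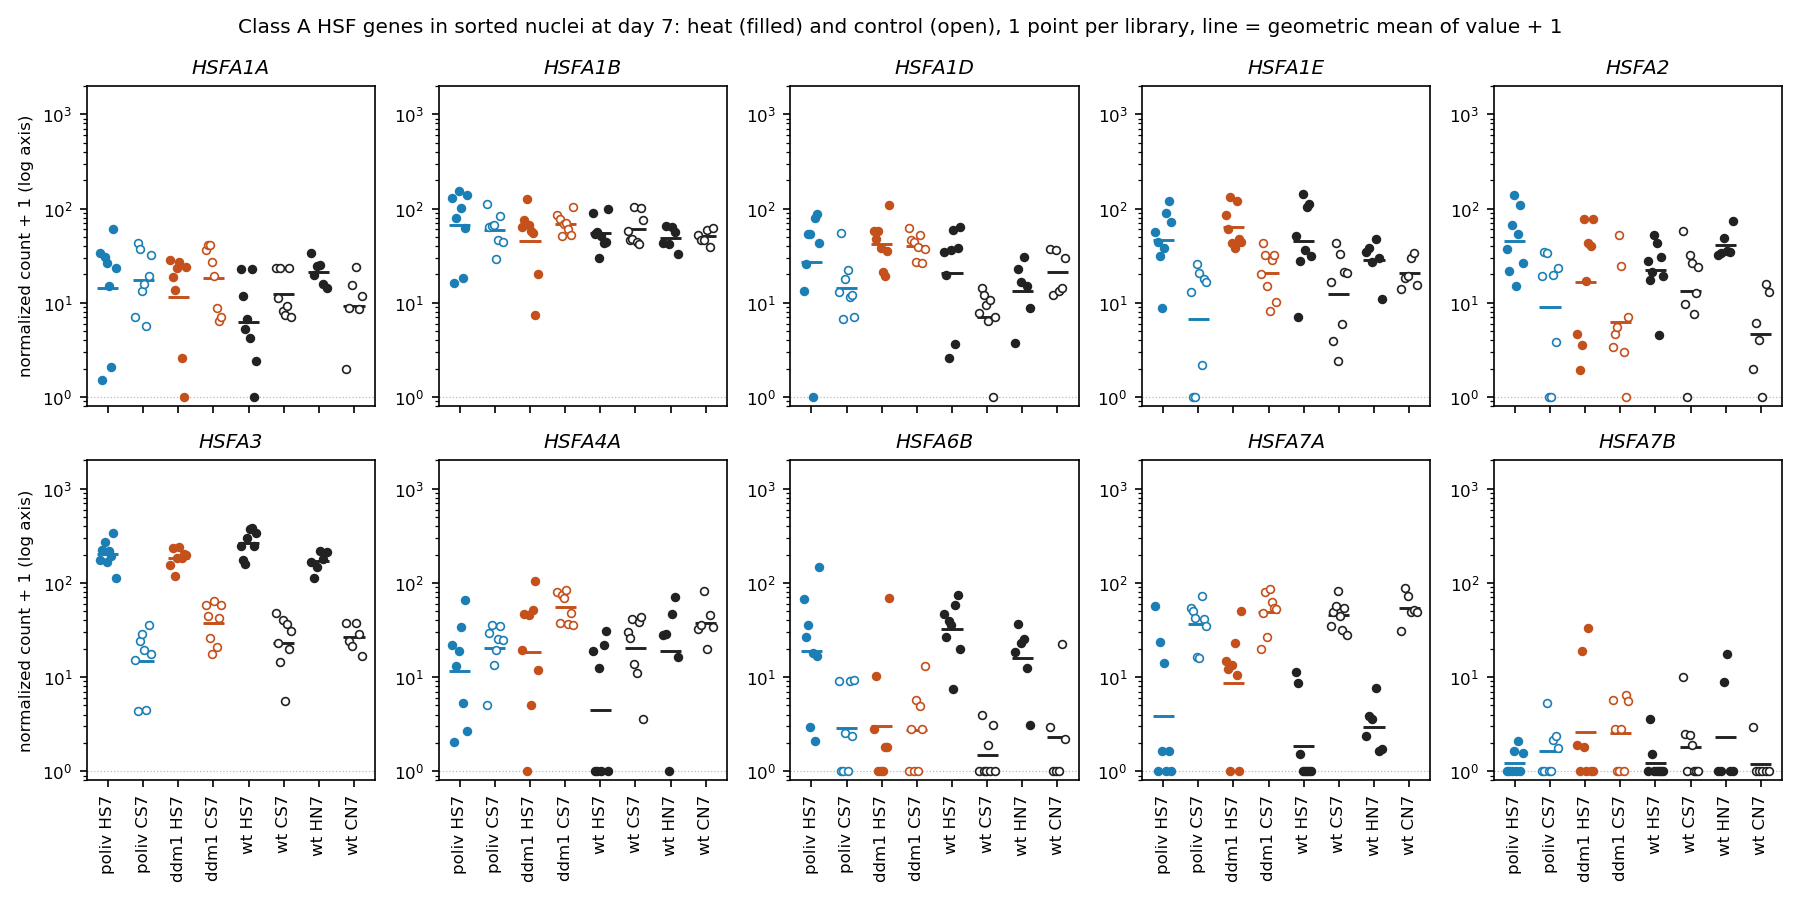
Normalized counts of the 10 class A genes per library in day 7 stem cell (S7) and nonstem (N7) nuclei, on a log axis of count + 1, with heat (H) left of control (C) and a line at the geometric mean of count + 1. In wt, *HSFA3* and *HSFA6B* lie higher and *HSFA7A* lower in HS7 than in CS7 with no overlap, while *HSFA2* separates in N7 and not in S7.

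Nonstem nuclei of wt gave 4 calls of 9 tested, with 40.4% of all features called (16% upward and 24.4% downward). The summed mesophyll markers were 7093 to 9209 in HN7 against 71494 to 97746 in CN7. Summed epidermis markers were 469 to 741 in HN7 against 886 to 1255 in CN7. The part of either in these changes was not tested. *HSFA2* rose, with a lowest value of 31.0, a median of 34.0 and a highest of 73.4 in the 6 HN7 libraries against a lowest value of 0, a median of 4.10 and a highest of 15.0 in CN7. The groups did not overlap (log2 fold change 3.14, SE 0.66, adjusted p = 0.000308). *HSFA3* rose to 172 ± 40.5 in HN7, against 26.7 ± 8.61 in CN7 (SD, n = 6 each, log2 fold change 2.67, SE 0.29, adjusted p = 2.45e-08). *HSFA7A* fell to 2.48 ± 2.29 in HN7, against 55.9 ± 20.2 in CN7 (log2 fold change -4.18, SE 0.58, adjusted p = 1.55e-06), with no overlap. *HSFA6B* rose to 18.9 ± 11.5 in HN7, against 4.14 ± 8.61 in CN7 (2.78, SE 0.83, adjusted p = 0.00712), a call that edgeR (adjusted p = 0.138) and DESeq2 (0.1) did not make. Without CN7 replicate 5 it was 3.43. The 4 *HSFA1* genes and *HSFA4A* were not called, with log2 fold changes from -1.01 (*HSFA4A*) to 1.19 (*HSFA1A*).

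Between stem cell and nonstem nuclei no member was called, of 8 tested under control conditions (background 2.49%) and 8 after heat (1.38%). By edgeR and DESeq2 the counts were 0 as well, and at an unadjusted p under 0.05 limma gave 1 and 2 members. Cell type and a possible difference in kit version between S7 and N7 cannot be told apart in these comparisons or in the difference of heat effects between them. Under control conditions *HSFA2* averaged 20.4 ± 18.0 in CS7 (n = 8) and 6.05 ± 6.14 in CN7 (SD, n = 6), a log2 fold change of 1.53 with an interval of -0.05 to 3.11. *HSFA1D* averaged 7.60 ± 4.05 in CS7 and 23.0 ± 12.1 in CN7 (-1.60, interval -2.87 to -0.33). After heat *HSFA3* averaged 276 ± 84.1 in HS7 and 172 ± 40.5 in HN7 (0.65, interval 0.17 to 1.13). The heat effect on *HSFA2* was called in nonstem and not in stem cell nuclei, but the difference of -2.42 between them was not called (adjusted p = 0.449), nor was that of any of the 9 members tested (background 0.275%, 3 members at an unadjusted p under 0.05 by limma, 0 calls by edgeR and DESeq2).

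In the sorted nuclei most targets of class A factors rose as well. In wt, 14 of 16 targets rose in stem cell nuclei (median 4.94) and 15 of 16 in nonstem nuclei (median 5.39), with 13 in *poliv* and 14 in *ddm1* stem cell nuclei. *DREB2B* and *DREB2C* rose in each of these comparisons (4.21 and 3.90 in wt stem cell nuclei). *HSC70-1*, a constitutive HSP70 that binds class A factors, fell in *ddm1* stem cell nuclei, to 1409.9 ± 298 in HS7 against 7161 ± 498 in CS7. That CS7 level was itself above the 3135 ± 378 of wt CS7 (log2 fold change 1.198), in the group with low stem cell markers. *HSFA8* rose in stem cell nuclei of all 3 genotypes (3.04 in *poliv*, 2.31 in *ddm1* and 2.62 in wt) and in nonstem nuclei (2.43). *HSFA4C* fell in wt stem cell (-1.58) and nonstem nuclei (-1.36). Of the repressive class B genes, *HSFB2B* fell in wt stem cell nuclei (-1.63), *HSFB4* in *poliv* stem cell (-2.17) and wt nonstem nuclei (-2.51), and none rose in nuclei.

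**Figure D4:**
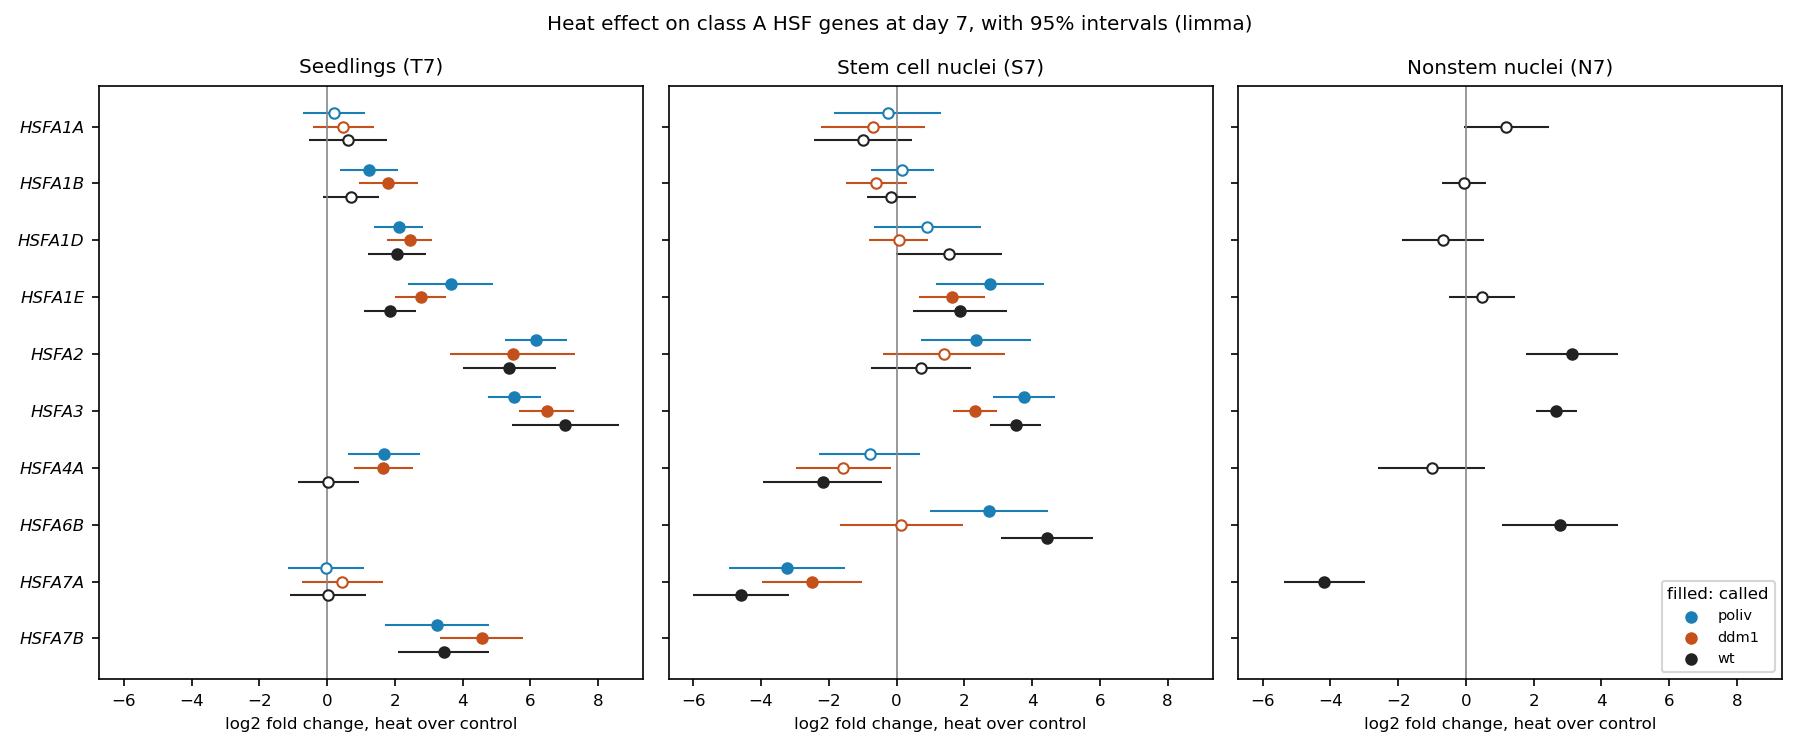
Log2 fold change of heat over control with 95% intervals for each class A gene and genotype at day 7, in seedlings, stem cell nuclei and nonstem nuclei. Filled points passed both thresholds, open points did not, and a missing point was below the filter. *HSFA3* is filled in all 7 comparisons, *HSFA7A* is near 0 in seedlings and negative in nuclei.

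By limma, the heat effects of stem cell nuclei and seedlings differed for *HSFA2*, *HSFA3* and *HSFA7A* in every genotype, all 3 lower in nuclei. By edgeR and DESeq2 as well this held for *HSFA3* in every genotype, but for *HSFA7A* in wt alone. In wt the differences, nuclei minus seedlings, were -4.66 (SE 0.99, adjusted p = 0.0006) for *HSFA2*, -3.51 (SE 0.73, adjusted p = 0.000571) for *HSFA3* and -4.62 (SE 0.86, adjusted p = 0.00014) for *HSFA7A*, 3 calls of 9 tested with a background of 23.6%. *HSFA6B* had a difference of 2.06 (SE 0.80, adjusted p = 0.0578), and was called as higher in nuclei with a pseudocount of 5 (1.72, adjusted p = 0.00713). In *poliv* they were -3.82, -1.77 and -3.20 (3 of 9, background 21.9%), where edgeR and DESeq2 did not call *HSFA7A* (adjusted p = 0.566 and 0.555). *HSFA4A* was called as lower there with a pseudocount of 5 (-1.83, adjusted p = 0.0369) and with TMM scaling (-2.71, adjusted p = 0.0354). With no filter, *HSFA7B* was called as lower in nuclei in wt (-3.99) and *poliv* (-3.64). In *ddm1* 7 of 10 members were called (background 25%), the above with *HSFA7B* (-4.50), *HSFA4A* (-3.23), *HSFA1B* (-2.40) and *HSFA1D* (-2.37), while edgeR called 3 and DESeq2 4. *HSFA2* was lost by edgeR (adjusted p = 0.0818) and *HSFA7A* by edgeR (0.161) and DESeq2 (0.108), as were *HSFA4A* and *HSFA7B*. Seedling and nuclear libraries differ in RNA fraction, input and kit as well as in cell type, which cannot be told apart.

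Without heat, limma called members between mutant and wt in *ddm1* CS7 and *ddm1* CS28 and in no other control comparison. In *ddm1* CS7, *HSFA1D* had a lowest value of 25.4, a median of 40.3 and a highest of 61.6, against a lowest value of 0, a median of 7.63 and a highest of 13.2 in wt CS7, with no overlap (log2 fold change 2.51, SE 0.50, adjusted p = 0.000259). *HSFA4A* averaged 57.2 ± 20.8 in *ddm1* CS7 and 24.9 ± 15.0 in wt CS7 (1.43, SE 0.44, adjusted p = 0.0159). These were 2 of 8 tested, with 17.7% of all features called. In wt CN7, the nuclei with low stem cell markers, *HSFA1D* averaged 23.0 and *HSFA4A* 40.5. The share of stem cell nuclei and the genotype cannot be told apart here either.

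At day 28, *HSFA6B* was lower in *ddm1* CS28, with 0, 2.42, 2.59 and 1.79, against 7.82, 11.9, 43.3 and 43.3 in wt CS28 (log2 fold change -3.17, SE 0.71, adjusted p = 0.00401). The groups did not overlap, and this was the 1 call among 9 tested (background 14.3%). *HSFA1D* was also called, as higher, without replicate 3 of wt CS28 (1.37, adjusted p = 0.0326) and by DESeq2 (1.28, adjusted p = 0.0399). The summed stem cell markers of *ddm1* CS28 were 471 to 575, against 649.5 to 713 in wt CS28, and the mesophyll markers 51417 to 61730 in *ddm1* CS28, against 24683 to 26981 in wt CS28. The part of either in the difference was not tested. In the other control comparisons of mutant and wt (*poliv* and *ddm1* CT7, *poliv* CS7, *poliv* and *ddm1* CI28, *poliv* CS28) limma called no member, with backgrounds of 0.159%, 6.68%, 0.981%, 0.164%, 10.3% and 0.404%. At an unadjusted p under 0.05, limma gave 1 member in *poliv* CI28 and 0 in the other 5. The gene in *poliv* CI28 was *HSFA2*, with 1.10, 0.956, 1.49 and 3.48 in *poliv* CI28 and 25.5, 35.4 and 2.86 in wt CI28. It was called as lower by DESeq2 (-3.52, adjusted p = 0.0119) and by limma without replicate 4 of wt CI28 (-3.58, adjusted p = 0.0138). The other 5 comparisons had 0 calls by edgeR and DESeq2.

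After 21 days of recovery limma called no member between plants with and without earlier heat, in any genotype, in inflorescences or stem cell nuclei. In inflorescences 6 members were tested in wt (background 0%), 6 in *poliv* (1.09%) and 7 in *ddm1* (0.762%). In wt, where same-numbered libraries deviated together, a fit with the replicate number as a block called 197 of 17966 features (1.1%), none of them a member. At an unadjusted p under 0.05 limma gave 0, 2 and 1 members, edgeR called none and DESeq2 called 0, 1 and 1. In stem cell nuclei 10 members were tested in wt (background 0%), 10 in *poliv* (0.0541%) and 9 in *ddm1* (0.23%). There limma gave 1, 0 and 1 members at an unadjusted p under 0.05, and edgeR and DESeq2 called none. Differences between mutant and wt heat effects at day 28 also called no member, by limma, edgeR or DESeq2, in either sample type. Their backgrounds were 0.00556% (*poliv*) and 0% (*ddm1*) in I28, and 0.0158% and 0% in S28. At an unadjusted p under 0.05, limma gave 2 members for *poliv* in S28 and 0 in the other 3.

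*HSFA2* in inflorescences varied widely between libraries of one group. In *poliv* it had 9.33, 13.1, 417 and 188 in HI28, against 1.10, 0.956, 1.49 and 3.48 in CI28. In *ddm1* it had 57.6, 29.1 and 580.3 in HI28, against 3.17, 2.16, 19.2 and 21.0 in CI28. In both mutants every library of earlier heated plants was above every control, as for 4.83% of all features tested in *poliv* and 7.85% in *ddm1*. The log2 fold changes were 4.48 (SE 1.304, adjusted p = 0.202) in *poliv* and 3.53 (SE 1.33, adjusted p = 0.373) in *ddm1*. DESeq2 called both (6.48 with adjusted p = 0.00014 in *poliv*, 4.79 with adjusted p = 0.0383 in *ddm1*, there without HI28 replicate 2). In wt it had 17.7, 5.87, 137 and 71.5 in HI28, against 25.5, 35.4 and 2.86 in CI28, and the groups overlapped (log2 fold change 1.12, interval -2.32 to 4.56). The values 9.33 and 13.1 of *poliv* HI28 and 29.1 of *ddm1* HI28 lay within this wt CI28 range of 2.86 to 35.4. The summed flower markers were 612 to 746 in *poliv* HI28 against 889 to 1115 in CI28. In wt they were 493 to 726 in HI28 against 746 to 945 in CI28. In *ddm1* they overlapped, at 373 to 596 in HI28 and 465 to 717 in CI28. Stem cell markers were 303 to 482 in *ddm1* HI28 against 170 to 241 in CI28, with overlap in *poliv* and wt. The part of these markers in the changes was not tested.

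Replicate 3 was the highest HI28 library for *HSFA2* in each genotype. The same library was the highest for 7 of 10 targets in wt, 7 of 10 in *poliv* and 9 of 11 in *ddm1* (targets with a mean of at least 5) and for 3 of 4 regulators in each. *MBF1C*, a heat-induced coactivator picked here after its values were seen, had 45.5, 53.3, 633 and 337 in *poliv* HI28, against 11.0, 14.3, 32.8 and 25.2 in CI28. It had 78.1, 73.2 and 919 in *ddm1* HI28, against 11.6, 20.5, 65.9 and 58.7 in CI28. In wt it had 92.1, 61.7, 299 and 268 in HI28, against 156, 106 and 26.7 in CI28. Groups were apart in both mutants and overlapped in wt, a likeness to *HSFA2* that the choice of the gene fixed. *HSP70-4*, picked in the same way, had 364, 382 and 2238 in *ddm1* HI28, against 91.0, 63.6, 284 and 190.4 in CI28. It had 72.3, 114, 896 and 305 in *poliv* HI28, against 8.83, 18.16, 50.7 and 15.7 in CI28. In wt it had 276, 131, 844 and 288 in HI28, against 406, 225 and 26.7 in CI28, and these groups overlapped. The labels give no batch for these libraries, and what replicate 3 of the genotypes may share was not tested.

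**Figure D5:**
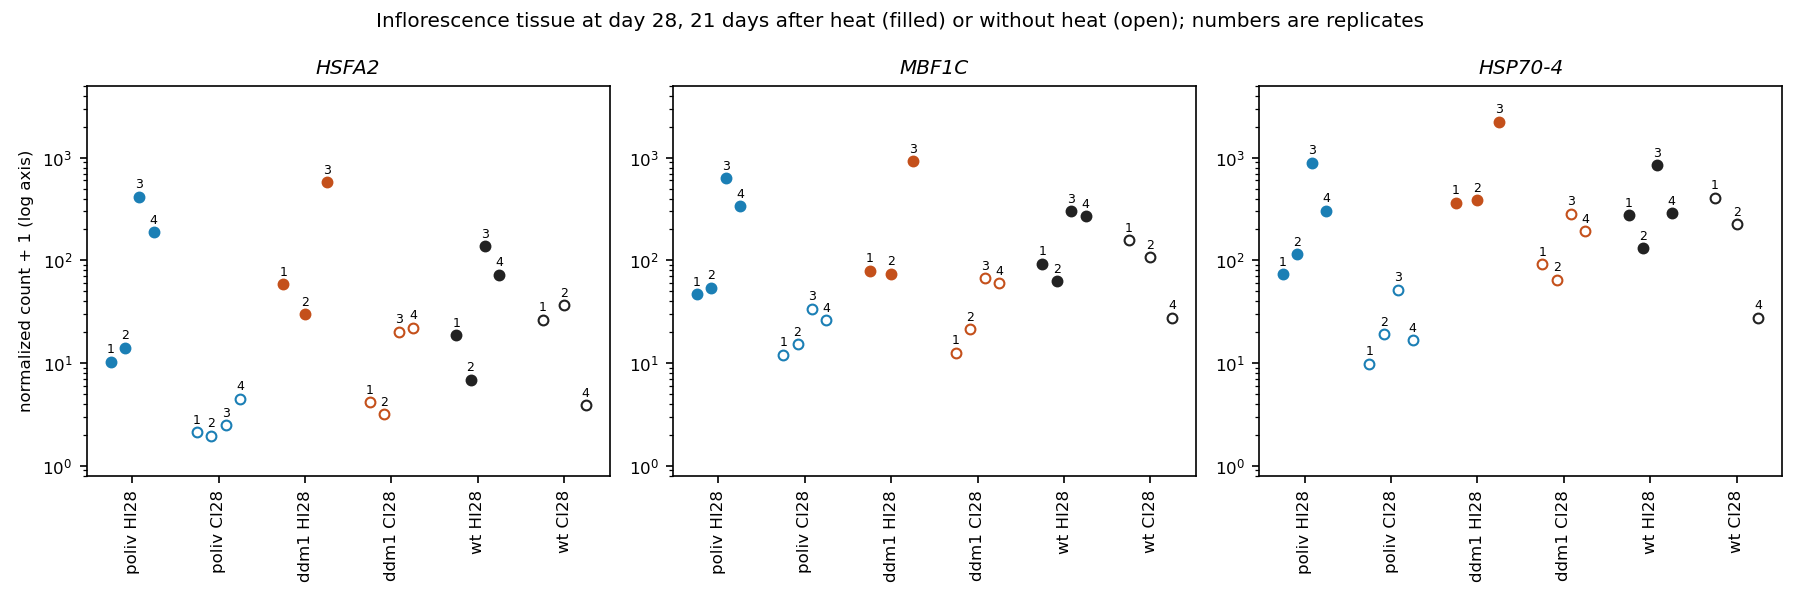
Normalized counts of *HSFA2*, *MBF1C* and *HSP70-4* in each inflorescence library at day 28 on a log axis of count + 1, with the replicate number beside each point and earlier heat (filled) left of control (open). Replicate 3 of HI28 is the highest library of each panel's group in all 3 genotypes.

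Among the pathway lists, *poliv* inflorescences (background 1.09%) had 2 of 4 regulators tested called after recovery, *HSP90-2* (2.01, adjusted p = 0.0112) and *ROF1* (1.03, adjusted p = 0.0454), and 1 of 2 *ONSEN* copies tested (AT5TE15240), with 15.0 ± 2.52 in HI28 against 0 in every CI28 library. *ddm1* stem cell nuclei (background 0.23%) had 2 of 11 targets tested called, *HSP70-4* (2.55, adjusted p = 0.0458) and *HSP90-1* (1.82, adjusted p = 0.0313). Among the members tested there, groups without overlap, higher after earlier heat, were found for *HSFA4A*, and among all features tested for 7.25%. *HSFA6B* was below the filter and so outside that share. Its groups did not overlap either, with 15.9, 3.70 and 4.71 in *ddm1* HS28, against 0, 2.42, 2.59 and 1.79 in CS28. *HSFA4A* had 56.2, 65.4 and 48.2 in HS28, against 15.9, 38.7, 44.1 and 30.4 in CS28 (0.87, SE 0.36, adjusted p = 0.309).

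Several members had low levels in inflorescences. *HSFA6B* was at 0 in every I28 library of wt and *ddm1* and in every *poliv* CI28 library, and averaged 0.953 in *poliv* HI28. In wt stem cell nuclei of the same age, set beside this with no comparison across sample types, it averaged 33.7 ± 29.1 in HS28 and 26.6 ± 19.4 in CS28 (SD, n = 4 each). *HSFA7B* averaged at most 1.67 in any I28 group and *HSFA7A* at most 9.69. Per kb of exon, *HSFA2* stood first in wt CI28 with 11.3 ± 8.89, and its range overlapped that of *HSFA1D*, the next, with 7.89 ± 2.30. In wt CS28 *HSFA1B* stood first with 26.01 ± 6.09 per kb and *HSFA2* last with 1.28 ± 1.74.

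Over the means of all 26 groups on the log2 scale, each member was compared with nuclear genes outside the list. These were among the 19461 nuclear genes, members included, with a mean of at least 5 over all libraries. The comparison is a description in which sample types, kits and depth are shared by the points. *HSFA2* was most like AT1G59860 and AT1G07400, annotated as HSP20-like chaperones (Pearson r = 0.89 and 0.88), and *Fes1A*, a listed target (0.85). *HSFA3* was most like AT1G72660 (0.97), the transporter gene *ABCA2* (0.97) and *EGY3* (0.97). *HSFA7A* was most like the zinc finger gene *ZFP8* (0.91), AT2G23100 (0.90) and *CMPG1* (0.90). *HSFA1B*, *HSFA1E* and *HSFA6B* were most like AT5G63080 (0.96), AT5G51130 (0.92) and AT2G31590 (0.90). *HSFA4A* and *HSFA1D* were most like AT5G03380 (0.86) and AT4G08230 (0.80). *HSFA1A* had its highest value, 0.62, with AT5G59830, and *HSFA7B*, with a mean under 5 over all libraries, was not compared.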

How the data were processed

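RNA-seq libraries were made from seedling tissue, inflorescence apices and nuclei isolated by fluorescence-activated sorting. Per the labels and the methods of the study, the authors ran the nextflow rnaseq pipeline (21.02.0), used bedtools (2.27), counted reads over TAIR10 genes and transposable elements, and normalized with DESeq2. The aligner, the counter, its strand setting and the DESeq2 version are not given in the sources used here. The methods give Smart-seq v3 for S7 and v2 for T7, I28 and S28 and name none for N7, while the labels give v2 throughout. One label tag calls the T7 tissue inflorescence meristems, against the sample titles, which were followed. The authors deposited 1 table of normalized counts, a signal in reads divided by 1 size factor per library, for 60886 features (29417 nuclear genes, 31189 transposable elements, 279 organelle genes and the reporter) in 128 libraries. The 52 deposited columns of group means and SDs were not used. No batch is labelled, and no label says that replicates came from separate cultures, so p-values measure the spread between libraries, which may be technical. The total per library ranged from 1853992 to 17611137 reads.

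The list of members, the other lists and the comparisons were chosen with earlier results of these data known. Each comparison was fitted with limma (3.58.1, R 4.3.3, trend and robust) on log2(normalized count + 1) over the groups compared, where their mean reached 5, and adjusted by Benjamini-Hochberg over all of them. Differences between heat effects were contrasts over 4 groups, with library weights by sample type for S7 against T7. Calls needed an adjusted p under 0.05 together with a log2 fold change above 1 in size. Percentages given as background are shares of all features tested that were called in this way. They do not apply to counts of members at an unadjusted p under 0.05, for which no share is given. Fold changes on this scale understate those of low genes. Shares of all features with groups that did not overlap were taken for HI28 against CI28 in *poliv* and *ddm1* and for HS28 against CS28 in *ddm1*. Elsewhere a lack of overlap describes the values of the gene named, with no share to set it against. In 125 libraries, the values were whole multiples of 1 read (100% of values within 0.1 read), and edgeR (4.0.16) and DESeq2 (1.42.0) were run on these reads as alternatives. Replicate 1 of wt CN7, replicate 5 of *ddm1* HS7 and replicate 2 of *ddm1* HI28 did not give whole reads and were left out there. Further alternatives were a pseudocount of 5, no filter, TMM scaling, a replicate block and leaving out each library. Same-numbered libraries deviated together (every r over 0.1, 0.107 to 0.172 over 3 pairs) in wt HI28 against CI28 alone, as a hint from the data. The code was tested on simulated data with 1 fixed spread for all genes and 4-fold changes in genes that were not low. That test does not cover low members or the spread of nuclear libraries. Floors of 3 reads and intervals cover counting or between-library error only.

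All 10 members are named in the text. Of the other lists (other class A factors, class B and C factors, regulators, targets and *ONSEN* copies) at most the 3 called genes with the highest absolute log2 fold change were named per comparison, plus genes a count of 5 or fewer rests on. Alike genes are the 3 with the highest Pearson r. Gene coordinates and upstream sequences are from RefSeq's TAIR10.1 assembly, which has the chromosomes of TAIR10.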

Additional observations from a re-analysis of the deposited data

Results flagged for a closer look

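In 15 of the 180 combinations of a member and a group with a mean of at least 5, 1 library stood apart from the others of its group by Dixon's 95% limit. Groups with fewer than 4 libraries were not examined. For normally distributed values, chance gives about 1 in 20 such groups. The limit was applied to normalized counts without a log, and each library named here was the highest of its group. That rate therefore need not hold, and 15 of 180 is not read as an excess. In day 7 seedlings these were *HSFA2* in replicate 4 of wt HT7 (344 against 48.4 to 79.2 in the other libraries), *HSFA1E* in replicate 3 of wt HT7 (40.2 against 25.5 to 27.8), *HSFA1D* in replicate 3 of wt CT7 (30.9 against 7.21 to 10.6) and *HSFA1A* in replicate 3 of *ddm1* HT7 (24.4 against 11.9 to 13.7). In day 7 stem cell nuclei, replicate 8 of *ddm1* HS7 stood apart for 3 members, *HSFA1D* (107 against 18.4 to 56.9), *HSFA6B* (68.2 against 0 to 9.39) and *HSFA7A* (48.9 against 0 to 22.2). The same nuclei had *HSFA2* in replicate 4 of *ddm1* CS7 (51.8 against 0 to 23.5), *HSFA6B* in replicate 8 of *poliv* HS7 (146 against 1.09 to 66.4), *HSFA7A* in replicate 1 of *poliv* HS7 (55.5 against 0 to 22.7) and *HSFA1D* in replicate 2 of *poliv* CS7 (53.9 against 5.74 to 21.5). In day 28 stem cell nuclei they were *HSFA4A* in replicate 4 of *poliv* HS28 (105 against 19.7 to 26.3), *HSFA6B* in replicate 3 of *poliv* HS28 (64.2 against 7.38 to 14.8), *HSFA1D* in replicate 4 of wt HS28 (26.4 against 13.6 to 14.9) and *HSFA3* in replicate 3 of wt CS28 (66.9 against 15.8 to 20.9).

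The heat effect differed between sample types or genotypes in 14 tests on the members (limma). Of all features, 7.09% were called for *ddm1* against wt in stem cell nuclei, with 9 members tested. For stem cell nuclei minus seedlings the shares were 23.6% in wt, 21.9% in *poliv* and 25% in *ddm1*. There 9, 9 and 10 members were tested. Calls below that edgeR or DESeq2 did not make are named in the results above. *HSFA6B* differed in stem cell nuclei between *ddm1* and wt by -4.29 (adjusted p = 0.00493). Stem cell nuclei minus seedlings gave -4.66 (adjusted p = 0.0006) for *HSFA2*, -3.51 (adjusted p = 0.000571) for *HSFA3* and -4.62 (adjusted p = 0.00014) for *HSFA7A* in wt. In *poliv* the values were -3.82 (adjusted p = 0.00498), -1.77 (adjusted p = 0.0277) and -3.20 (adjusted p = 0.0286) for the same genes. In *ddm1* they were -4.07 (adjusted p = 0.0129), -4.17 (adjusted p = 7.27e-08) and -2.95 (adjusted p = 0.0219). *ddm1* added *HSFA7B* with -4.50 (adjusted p = 0.00116), *HSFA4A* with -3.23 (adjusted p = 0.00631), *HSFA1B* with -2.40 (adjusted p = 0.00483) and *HSFA1D* with -2.37 (adjusted p = 0.00119).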

How the results depend on the processing

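No log2 fold change of a member that was called changed sign under any alternative run. Of 292 log2 fold changes of members, 291 kept their side of the thresholds with no filter, 290 with the replicate block and 288 with a pseudocount of 5. Of the 291 that the read-based fits gave, 289 did so with TMM scaling, 280 by edgeR and 278 by DESeq2, and of 2423 refits without 1 library 2394 did. Counts of members called moved by over 1.5 times in the following comparisons. DESeq2 gave 1 where limma gave 0 in *poliv* HI28 against CI28, *ddm1* HI28 against CI28 and *poliv* CI28 against wt CI28, 2 where limma gave 1 in *ddm1* CS28 against wt CS28, and 4 where limma gave 7 in the *ddm1* difference between stem cell nuclei and seedlings. EdgeR gave 3 in that difference. For the difference between *ddm1* and wt heat effects in stem cell nuclei, edgeR and DESeq2 gave 0 where limma gave 1. The cause was not tested. The replicate block gave 1 in *ddm1* HI28 against CI28, where *HSFA2* was called at 3.97 (adjusted p = 0.00373). Same-numbered libraries did not all deviate together there (r = 0.00381 to 0.117). No other count of members moved. The block also called *HSFA4A* in the *poliv* difference between stem cell nuclei and seedlings (-2.69, adjusted p = 0.0456). In wt HI28 against CI28, same-numbered libraries deviated together, which is only a hint that the numbers pair them. There the block changed no call of a member but called 197 features where the fit without it called 0. Over all features, the block called 351 against 197 in *poliv* HI28 and 386 against 144 in *ddm1* HI28. The count of all features called moved by over 1.5 times in 18 of 35 comparisons by DESeq2, 8 by edgeR, 8 with the block, 7 with no filter, 4 with TMM scaling and 4 with a pseudocount of 5.

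Without 1 library, counts ranged from 4 to 6 (wt HT7 against CT7), 5 to 8 (*poliv* HT7), 7 to 7 (*ddm1* HT7), 3 to 5 (wt HS7), 5 to 6 (*poliv* HS7), 3 to 4 (*ddm1* HS7), 4 to 4 (wt HN7), 0 to 1 (*poliv* CI28 against wt) and 1 to 2 (*ddm1* CS28 against wt), and were 0 throughout in the other comparisons refitted. Refits were not run for the genotype comparisons in S7 and the differences between heat effects that involve S7. The counts of wt and *poliv* HT7 moved in part by construction, since *HSFA7B* or *HSFA6B* crossed the filter of 5 without a library. Low read counts limit the values of *HSFA7B* in nuclei and of *HSFA6B* in seedlings.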

Other observations

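Among the pathway genes outside the class A list, the control stem cell nuclei of day 28 held lower levels of a few genes in *ddm1* than in wt (limma, 4 libraries each). *HSFC1*, the class C heat shock factor, averaged 15.4 ± 5.61 in *ddm1* CS28 and 531 ± 144 in wt CS28 (SD, log2 fold change -5.05, adjusted p = 1.38e-08). It was also lower in *poliv* CS28, at 156 ± 71.6 (log2 fold change -1.81, adjusted p = 0.0123), against the same wt libraries. *DREB2A*, whose protein acts upstream of *HSFA3*, averaged 21.4 ± 3.53 in *ddm1* CS28 and 664 ± 378 in wt CS28 (log2 fold change -4.71, adjusted p = 5.41e-05). *DREB2B* averaged 5.73 ± 2.46 in *ddm1* CS28 and 45.5 ± 39.1 in wt CS28 (log2 fold change -2.30, adjusted p = 0.0213). These were 1 of 5 class B and C factors and 2 of 6 regulators tested, all lower, with 14.3% of all features called in that comparison, and the stem cell markers were lower in *ddm1* CS28 as well. The mesophyll markers were 51417 to 61730 in *ddm1* CS28 and 24683 to 26981 in wt CS28, and organelle genes held 14.7 to 20.6% of reads in *ddm1* CS28 and 30.2 to 44.2% in wt CS28. The part of these in the differences was not tested.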
